A study of Homo sapiens with 26 samples.

Results

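The type 2 immune circuit of tuft cells was followed through 8 genes: the alarmin genes IL25 and TSLP, the cytokine receptor genes IL17RB, IL13RA1 and IL4R, the succinate receptor gene SUCNR1, the acetylcholine synthesis gene CHAT and the kinase gene DCLK1. They were taken by symbol, 8 of the 19143 genes listed in the deposited tables, and all 8 were present both in the knockout tables and in the parental table. RNA was sequenced from human small cell lung cancer lines. In 4 of them (NCI-H211, COR-L311, NCI-H526 and NCI-H1048) cells received by lentivirus either sgPOU2F3, a guide RNA against POU2F3, the gene of the transcription factor that tuft cells of the mouse need to form, or the control guide sgNeg. Cells were harvested 4 days after infection in NCI-H1048 and NCI-H211 and 5 days after it in COR-L311 and NCI-H526, so the harvest day and the line cannot be told apart. The labels list 2 sgPOU2F3 guides per line, but the tables hold 1 sgPOU2F3 value and 1 sgNeg value per gene and line, with no spread between guides. Uninfected parental cultures made up the other groups: those of the same 4 lines and those of 10 other small cell lung cancer lines, 1 library per line. NCI-H1048 was grown in HITES medium, NCI-H128 in RPMI with serum, and the medium of each of the remaining lines is given only as RPMI or HITES. Infected cells were not described as clones, and the labels name no selection, so each sgPOU2F3 value may mix edited and unedited cells. In such bulk samples, fewer cells expressing a gene and less RNA per cell cannot be told apart.

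Tuft cells are rare chemosensory epithelial cells of gut and airway. In the mouse intestine they sense succinate from microbes and parasites through SUCNR1 and release interleukin-25 (IL-25), which acts on innate lymphoid cells through the receptor chain IL17RB. Those cells secrete interleukin-13, which acts on epithelial progenitors through IL13RA1 paired with IL4R and increases the number of tuft cells. Tuft cells also make acetylcholine with the enzyme encoded by CHAT, and DCLK1 is widely used as their marker in the mouse intestine. POU2F3 binds the octamer motif of the POU factor family.

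SUCNR1 and IL4R were the members whose promoter windows held an octamer, ATGCAAAT or, on the other strand, ATTTGCAT, and both windows are shown for that reason, 5′ to 3′ on the gene's own strand, with each octamer in capitals. RefSeq windows of GRCh38.p14, spanning 250 bases before to 50 bases after an annotated start, were at hand for 7 of the 8 genes (13 windows in all). The SUCNR1 window lies at chr3:151873393-151873692 on the + strand and the IL4R window at chr16:27313724-27314023 on the + strand.
SUCNR1: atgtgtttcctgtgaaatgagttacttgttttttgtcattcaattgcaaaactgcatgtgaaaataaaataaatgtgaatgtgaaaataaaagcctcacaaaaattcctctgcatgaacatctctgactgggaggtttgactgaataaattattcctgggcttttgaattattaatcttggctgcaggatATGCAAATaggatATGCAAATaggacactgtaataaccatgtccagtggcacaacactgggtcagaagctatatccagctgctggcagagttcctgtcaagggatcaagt
IL4R: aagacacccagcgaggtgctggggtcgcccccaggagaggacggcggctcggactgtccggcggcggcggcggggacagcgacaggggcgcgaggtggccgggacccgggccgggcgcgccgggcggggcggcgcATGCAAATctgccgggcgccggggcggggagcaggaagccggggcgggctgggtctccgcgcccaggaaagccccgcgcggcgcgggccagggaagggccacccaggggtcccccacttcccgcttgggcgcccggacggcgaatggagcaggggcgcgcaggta
The SUCNR1 window held the octamer at 2 places, from -60 to -53 and from -47 to -40 relative to the start, and the IL4R window at 1 place, from -115 to -108. Among 35116 promoter windows of the same length, 623 (1.77%) held at least 1 octamer and 14 (0.0399%) held 2 or more. The SUCNR1 window also held TTC and GAA with 4 free bases between, the palindromic form bound by STAT6, the factor activated by IL-4 and IL-13, which 2261 of all windows (6.44%) held on either strand. Such a match describes letters, and binding of a factor was not measured.

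The values are FPKM, fragments scaled to the length of the transcript and to the depth of the library, so levels are given per length. Depth was estimated from the step between low values at 20.4 to 33.0 M fragments for the sgPOU2F3 columns, 10.2 to 16.5 M for the sgNeg columns, and parental libraries had 10.9 to 35.4 M (M, mega). POU2F3 RNA, the check of the targeted gene, was lower in the sgPOU2F3 column of every line, at 218 FPKM with sgPOU2F3 against 272 FPKM with sgNeg in COR-L311, 60.8 against 198 FPKM in NCI-H1048, 21.3 against 307 FPKM in NCI-H211 and 204 against 501 FPKM in NCI-H526. RNA of a cut gene does not measure the remaining protein. Summed FPKM of 19 tuft cell markers, with the targeted POU2F3 among them, ranged over 251 to 1244 in sgPOU2F3 columns and over 767 to 3119 in sgNeg columns. In parental cultures it was 776 to 2672 in the 4 lines used for knockout and 8.25 to 205 in the other 10. Summed FPKM of 13 blood cell markers was 2.87 to 15.1 in sgPOU2F3 columns and 2.36 to 11.7 in sgNeg columns. CD3D, MS4A1 and TPSAB1 were at 0 in all 8, but some others of the list were expressed. In COR-L311, CD68 had 6.75 FPKM with sgPOU2F3 and 6.37 FPKM with sgNeg, and CD14 had 2.01 and 4.32 FPKM in the same order. With sgPOU2F3, HLA-DRA had 7.13 FPKM in NCI-H1048 and LYZ had 6.04 FPKM in NCI-H211.

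Across the 4 lines, no member passed the test of sgPOU2F3 against sgNeg. Of the 8 genes, 6 reached 1 FPKM in at least 4 of the 8 columns and entered a limma fit on log2(FPKM + 1) with the line as a term, and 0 of them were called at an adjusted p under 0.05. Among all 12387 genes tested, 0% were called lower and 0.0161% higher. At an unadjusted limma p under 0.05, 4 of the 6 tested members were lower and 0 higher, beside 877 lower and 579 higher of all 12387 genes. IL13RA1, IL17RB, CHAT and DCLK1 were lower with sgPOU2F3 in 4 of 4 lines, which was the case for 12.9% of all genes tested. For CHAT, NCI-H1048 enters this count with 0 against 0.0426 FPKM, about 1 fragment, so no decrease can be read there. Counting IL4R and SUCNR1, 6 were lower in at least 3 of 4 lines, against 38.2% of all genes, and 0 were higher in 4 of 4, against 9.81%. The median log2 ratio of the 6 tested members was -0.54, against -0.02 over all genes tested, and by line it was -1.53 in NCI-H211, -0.60 in COR-L311, -0.44 in NCI-H526 and -0.36 in NCI-H1048. The plot of FPKM by line shows both values for each gene.

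**Figure D1:**
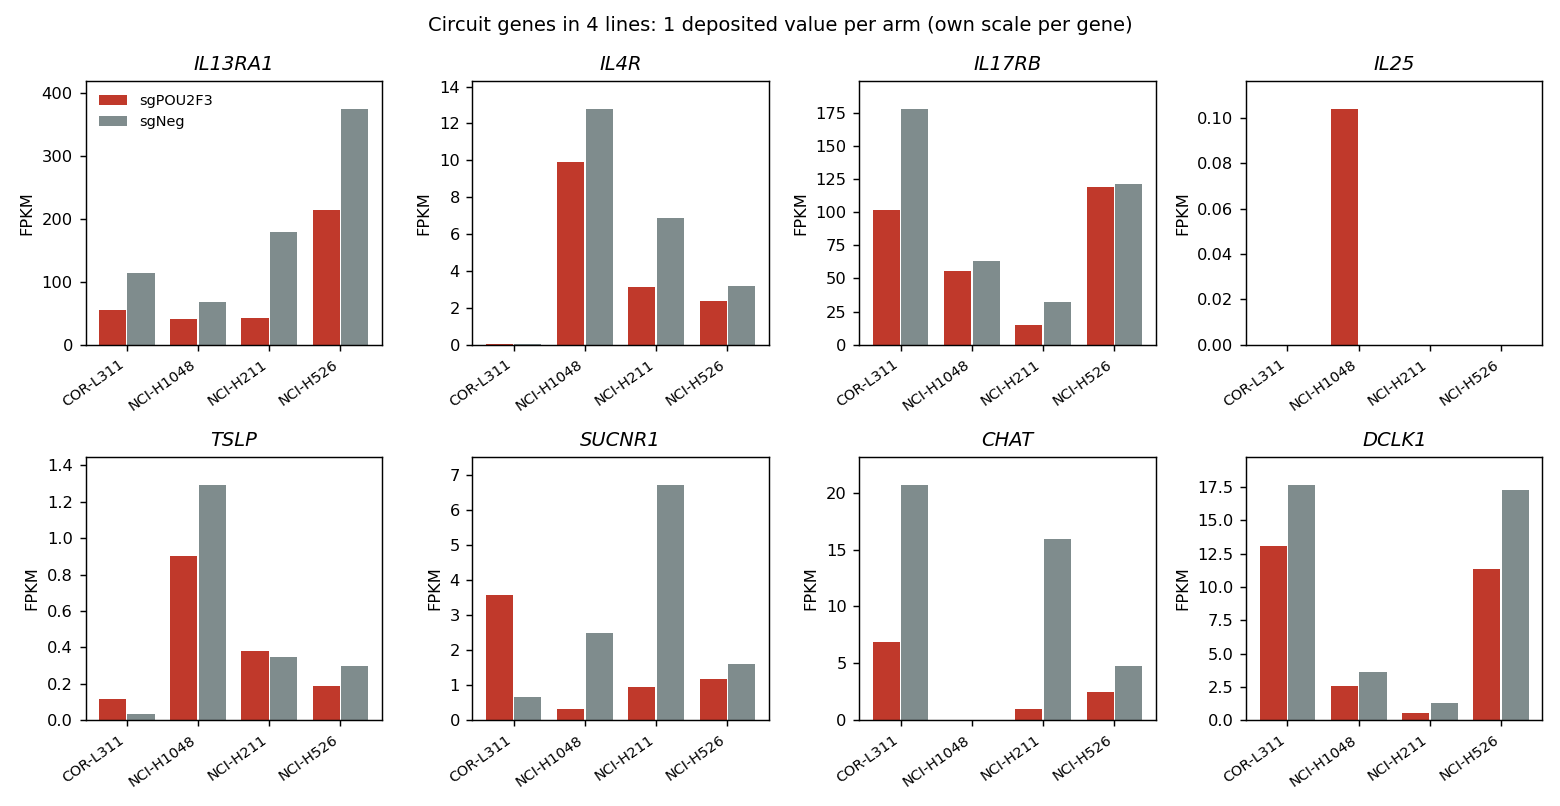
FPKM of the 8 genes in each line (y axis, own scale per gene; x axis, line), with the sgPOU2F3 value left of the sgNeg value. Each bar is 1 deposited value with no error. IL13RA1 is lower with sgPOU2F3 in all 4 lines, while SUCNR1 is higher in COR-L311. CHAT is lower in COR-L311, NCI-H211 and NCI-H526, and in NCI-H1048 it is near 0 with both guides (0 against 0.0426 FPKM).

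Of the alarmins, IL25, which tuft cells of the mouse release as their signal to lymphoid cells, was at 0 in 7 of 8 knockout columns. The exception was the sgPOU2F3 column of NCI-H1048, at 0.104 FPKM, or 1.2 to 2.4 fragments depending on the transcript length. In parental cultures IL25 was at 0 in 12 of 14 lines, with 0.0972 FPKM in COR-L311 and 0.297 FPKM in NCI-H82. The highest of these came to 4.9 to 10 fragments, so a change of IL25 was not detectable at this depth.

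TSLP, an epithelial cytokine that acts on dendritic and lymphoid cells, had 0.116 FPKM with sgPOU2F3 against 0.0367 FPKM with sgNeg in COR-L311, 0.902 against 1.29 FPKM in NCI-H1048, 0.378 against 0.348 FPKM in NCI-H211 and 0.191 against 0.298 FPKM in NCI-H526. It was lower in 2 lines and higher in the other 2. The 2 higher lines rest on few sgNeg fragments, 0.2 to 1.1 in COR-L311 and 1.9 to 8.6 in NCI-H211. No direction can be read there. Its highest parental level was 1.54 FPKM in NCI-H1048, followed by 1.02 FPKM in NCI-H524, a line of the other group. Neither alarmin passed the filter on low values.

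IL17RB, the chain that binds IL-25, was among the most abundant members and its sgPOU2F3 values lay below sgNeg in every line. It had 102 FPKM with sgPOU2F3 against 178 FPKM with sgNeg in COR-L311, 55.9 against 63.4 FPKM in NCI-H1048, 14.8 against 32.4 FPKM in NCI-H211 and 119 against 122 FPKM in NCI-H526. The log2 ratios were -0.80, -0.18, -1.08 and -0.03 in that order of lines, so the values in NCI-H526 and NCI-H1048 were close to their controls. The mean log2 ratio was -0.52 ± 0.50 (SD, n = 4 lines), with a limma adjusted p of 0.408, and -0.33 without NCI-H211.

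IL13RA1, the chain that binds interleukin-13, had the second lowest mean log2 ratio of the members after CHAT. Its values were 54.5 FPKM with sgPOU2F3 against 114 FPKM with sgNeg in COR-L311, 41.4 against 67.2 FPKM in NCI-H1048, 42.0 against 179 FPKM in NCI-H211 and 213 against 374 FPKM in NCI-H526. All 4 lines were lower, with NCI-H211 at 23.5% of its control and the remaining lines at 47.6% to 61.7%. The mean log2 ratio was -1.15 ± 0.63 (SD, n = 4 lines; limma SE 0.23, unadjusted p 0.00211, adjusted p 0.343). By p it stood at place 76 of 12387.

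IL4R, the chain shared by the receptors for interleukin-4 and interleukin-13, was low in one line and moderate in the other 3. It had 0.0251 FPKM with sgPOU2F3 against 0.0241 FPKM with sgNeg in COR-L311, 9.93 against 12.8 FPKM in NCI-H1048, 3.12 against 6.86 FPKM in NCI-H211 and 2.34 against 3.18 FPKM in NCI-H526. The sgPOU2F3 value was lower in the 3 lines where the gene was above 1 FPKM and near the control in COR-L311. In COR-L311 the values came to at most 2.1 fragments with sgPOU2F3 and 1.1 with sgNeg, so no change can be read there. The mean log2 ratio was -0.40 ± 0.39 (SD, n = 4 lines, limma adjusted p 0.446). It was -0.22 without NCI-H211 and -0.53 without COR-L311.

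SUCNR1, a G protein-coupled receptor for succinate, was the member whose lines disagreed most. Its sgPOU2F3 and sgNeg values were 0.311 against 2.48 FPKM in NCI-H1048, 0.950 against 6.72 FPKM in NCI-H211 and 1.19 against 1.61 FPKM in NCI-H526, but 3.58 against 0.672 FPKM in COR-L311. In fragments these were about 25.2 with sgPOU2F3 against 122 with sgNeg in NCI-H1048 and 100.1 against 274 in NCI-H211. They were 156.5 against 106.4 in NCI-H526 and 338 against 33.5 in COR-L311. The sgPOU2F3 columns were the deeper ones, with 33.0 M against 16.5 M fragments in NCI-H526. Fragment numbers therefore show what each value rests on and give no direction. By FPKM, the direction in COR-L311 was the reverse of that in NCI-H1048 and NCI-H211. NCI-H526 moved by less than a log2 ratio of 1. The mean log2 ratio was -0.55 ± 1.52 (SD, n = 4 lines; limma adjusted p 0.693), and it was -1.22 without COR-L311, -0.26 without NCI-H1048 and -0.07 without NCI-H211.

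CHAT, the enzyme that makes acetylcholine, had the lowest mean log2 ratio among the members. It had 6.85 FPKM with sgPOU2F3 against 20.7 FPKM with sgNeg in COR-L311, 1.02 against 16.0 FPKM in NCI-H211 and 2.44 against 4.76 FPKM in NCI-H526, whereas NCI-H1048 had 0 against 0.0426 FPKM, about 1 fragment. In the 3 lines that expressed it, the sgPOU2F3 value was 33.1%, 6.37% and 51.4% of the control, in the order just given. The mean log2 ratio was -1.33 ± 1.29 (SD, n = 4 lines; limma unadjusted p 0.0255, adjusted p 0.402), and it was -0.76 without NCI-H211 and -1.76 without NCI-H1048. SLC18A3, the vesicular acetylcholine transporter, lies inside the CHAT span on the same strand (chromosome 10, 49610301 to 49612720 within 49609095 to 49665104, GRCh38) and shares no annotated exon base with CHAT. The library kit does not mark strand, and how far reads of the nested genes were kept apart was not tested. SLC18A3 had 15.0 FPKM with sgPOU2F3 against 42.1 FPKM with sgNeg in COR-L311, 0 against 0.257 FPKM in NCI-H1048, 0.279 against 5.25 FPKM in NCI-H211 and 3.89 against 8.74 FPKM in NCI-H526. Its sgPOU2F3 value was the lower one in all 4 lines (mean log2 ratio -1.26), with a limma adjusted p of 0.388.

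DCLK1, a doublecortin-like kinase that binds microtubules, had the smallest spread between lines of the tested members. It had 13.1 FPKM with sgPOU2F3 against 17.7 FPKM with sgNeg in COR-L311, 2.58 against 3.65 FPKM in NCI-H1048, 0.561 against 1.31 FPKM in NCI-H211 and 11.4 against 17.3 FPKM in NCI-H526. The log2 ratios ran between -0.56 and -0.38, all below 0. This narrow range depends on the 1 added to low values. The sgPOU2F3 value was 42.9% of the control in NCI-H211 and 65.8% to 74.3% in the other lines. With 0.1 added in place of 1, the log2 ratio was -1.09 in NCI-H211, -0.43 in COR-L311, -0.49 in NCI-H1048 and -0.60 in NCI-H526. With 1 added, the mean was -0.48 ± 0.10 (SD, n = 4 lines; limma unadjusted p 0.00557, adjusted p 0.388), at place 171 of 12387 by p.

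**Figure D2:**
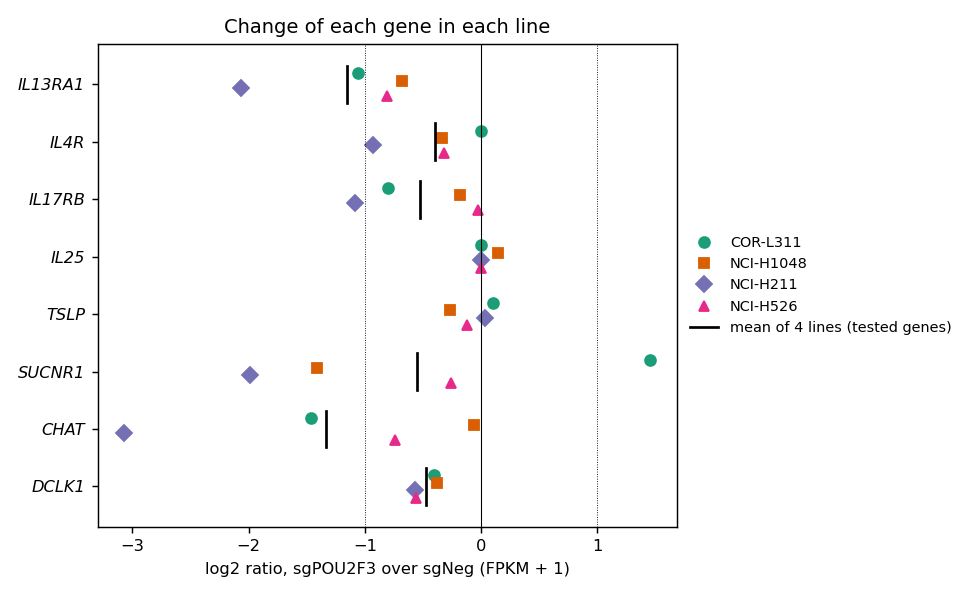
Log2 ratio of sgPOU2F3 to sgNeg (FPKM + 1) for each gene (rows) in each of the 4 lines (points; x axis, log2 ratio). Most points lie left of 0, NCI-H211 lies farthest left for IL13RA1 and CHAT, and SUCNR1 in COR-L311 lies at 1.45.

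By size within single lines, where 1 value per arm allows no test, 7 of the 32 gene-by-line values were at a log2 ratio of -1 or lower and 1 was at 1 or higher. NCI-H211 held 4 of the 7 (IL13RA1, IL17RB, SUCNR1 and CHAT), COR-L311 held 2 (IL13RA1 and CHAT), NCI-H1048 held 1 (SUCNR1) and NCI-H526 held 0. Over all genes tested, 4.26% were at -1 or lower in NCI-H211, 1.92% in COR-L311, 0.783% in NCI-H1048 and 0.388% in NCI-H526. At 1 or higher were 2.81% of genes in COR-L311, where SUCNR1 stood, 4.87% in NCI-H211, 1.39% in NCI-H526 and 0.767% in NCI-H1048.

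In parental cultures, IL13RA1 and SUCNR1 were above all 10 other lines in each of the 4 lines used for knockout and IL17RB in 3 of the 4, while IL4R, CHAT and DCLK1 were low in some of them. No member of the filtered fit passed the test. A limma fit of log2(FPKM + 1) over 14 libraries tested 5 of the 8 members and called 0. Of 13226 genes, 0.212% were called higher and 0.0378% lower. POU2F3 itself was called in this limma fit, with a log2 difference of 7.96 (adjusted p 9.05e-11). Among the lines used for knockout, NCI-H1048 had the least parental POU2F3 RNA, 189 FPKM. The most found in any other line was 0.608 FPKM, in DMS79. The 2 sets of lines thus differ in POU2F3 level, and the POU2F3 call only restates the grouping. Summed IL13RA1, IL4R and IL17RB levels were 251 FPKM in COR-L311, 107 FPKM in NCI-H1048, 73.0 FPKM in NCI-H211 and 395 FPKM in NCI-H526. The highest of the other lines was NCI-H889 at 71.7 FPKM, close to NCI-H211. On their own, IL4R and IL17RB overlapped between the groups. No share of all genes stands beside this sum, so no separation is read from it. The lines were chosen for knockout by the study for reasons not given in the sources used here, and each line has 1 library, so neighbouring levels in an order of lines have no spread to be read against.

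IL13RA1 separated the 2 sets of lines without overlap, as did 0.401% of all genes tested in the higher direction and 0.25% in the lower, where no member stood. It had 198 FPKM in NCI-H526, 135 FPKM in COR-L311, 45.0 FPKM in NCI-H1048 and 39.9 FPKM in NCI-H211, against a median of 5.80 FPKM and a range of 0.0208 to 35.4 FPKM over the other 10 lines. The step from NCI-H211 to NCI-H69, the highest of the others, was small. The log2 difference was 3.65 ± 0.92 (limma SE, adjusted p 0.128).

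IL17RB overlapped, with 192 FPKM in NCI-H526, 116 FPKM in COR-L311, 54.9 FPKM in NCI-H1048 and 27.4 FPKM in NCI-H211 against 1.97 to 49.5 FPKM in the other lines. NCI-H211 lay below NCI-H889 and DMS79, which had 49.5 and 42.1 FPKM. The log2 difference was 2.47 ± 0.70 (limma SE, adjusted p 0.211). IL17RB was above 1 FPKM in all 14 lines, with its ligand gene IL25 at or near 0 in the same libraries.

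IL4R did not follow the groups. COR-L311, at 0.0278 FPKM, was the lowest of 14 lines, while NCI-H1048, NCI-H211 and NCI-H526 had 7.12, 5.72 and 5.13 FPKM, close to the highest line, DMS114 with 7.20 FPKM. In COR-L311 almost no IL4R RNA stood beside IL13RA1 at 54.5 FPKM with sgPOU2F3, 114 FPKM with sgNeg and 135 FPKM in the parental culture. The log2 difference was 1.16 (limma adjusted p 0.677), and 1.85 without COR-L311 (adjusted p 0.490).

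SUCNR1 separated the groups without overlap at low levels. It had 7.47 FPKM in NCI-H1048, 3.42 FPKM in COR-L311, 2.004 FPKM in NCI-H211 and 0.865 FPKM in NCI-H526, against at most 0.318 FPKM, with 6 of the other 10 lines at 0. It reached 1 FPKM in only 3 libraries and was outside the main fit. A lower bar of 3 libraries would admit it solely through lines used for knockout, so no test is given from it. In the fit with no filter on low values, the log2 difference was 1.82 ± 0.27 (limma SE, adjusted p 0.012). The limma adjusted p was 0.000871 to 0.0441 when each line was left out in turn. The 6 lines at 0 have no spread, so these p-values rest partly on the floor and are not read as support. The share of genes without overlap given for IL13RA1 covers filtered genes only, so SUCNR1 has no such share beside it.

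CHAT was high in some lines of both groups. It had 20.7 FPKM in COR-L311, 10.6 FPKM in NCI-H211, 5.81 FPKM in NCI-H526 and 0.0495 FPKM in NCI-H1048, against 7.92 FPKM in NCI-H82, 1.58 FPKM in DMS79, 1.08 FPKM in NCI-H69 and at most 0.0414 FPKM in the rest. The log2 difference was 2.13 ± 0.71 (limma SE, adjusted p 0.337), and with single lines left out it ran between 1.56 without COR-L311 (adjusted p 0.702) and 3.01 without NCI-H1048 (adjusted p 0.0615).

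DCLK1 also overlapped, with 37.4 FPKM in COR-L311, 12.9 FPKM in NCI-H526, 2.25 FPKM in NCI-H1048 and 1.10 FPKM in NCI-H211, against 0.00798 to 36.1 FPKM in the other lines, NCI-H146 being highest. The log2 difference was 0.35 ± 0.86 (limma SE, adjusted p 0.948).

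**Figure D3:**
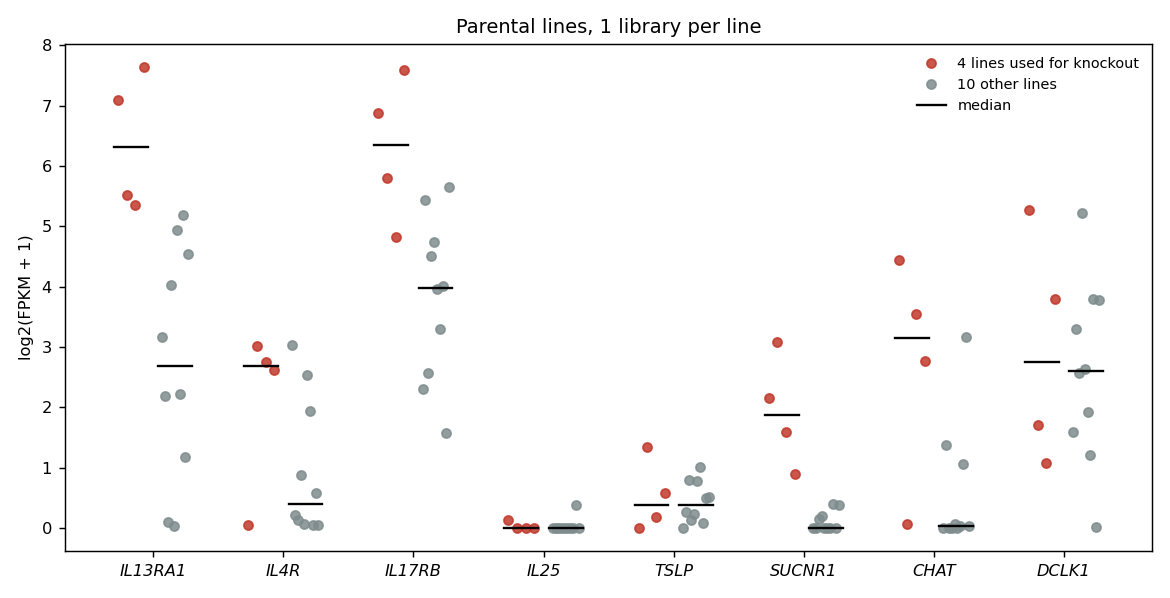
Log2(FPKM + 1) of the 8 genes (x axis) in the 14 parental lines, 1 point per line, the 4 lines used for knockout left of the 10 others. IL13RA1 and SUCNR1 separate the 2 sets of lines, IL4R and DCLK1 do not, and IL25 lies at or near 0.

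Control-guide levels were not the parental levels for every member. These tables were normalized separately, so the following levels are given side by side, with the sgNeg to parental log2 ratio of all genes as the yardstick. IL13RA1 in NCI-H211 had 42.0 FPKM with sgPOU2F3, 179 FPKM with sgNeg and 39.9 FPKM in the parental culture. The sgNeg value was thus the one that stood apart, with a log2 difference from the parental culture of 2.14, as high in only 0.186% of 12386 genes. In NCI-H526, IL13RA1 had 213 FPKM with sgPOU2F3, 374 FPKM with sgNeg and 198 FPKM in the parental culture, and in NCI-H1048 it had 41.4, 67.2 and 45.0 FPKM in the same order. COR-L311 had 54.5, 114 and 135 FPKM. The sgPOU2F3 value of IL13RA1 was thus within a log2 difference of 0.12 of the parental value in 3 lines (0.07 in NCI-H211, 0.10 in NCI-H526 and -0.12 in NCI-H1048) and at -1.29 in COR-L311. SUCNR1 in COR-L311 had 3.58 FPKM with sgPOU2F3, 0.672 FPKM with sgNeg and 3.42 FPKM in the parental culture. SUCNR1 in NCI-H1048 had 0.311, 2.48 and 7.47 FPKM in the same order. It had 0.950, 6.72 and 2.004 FPKM in NCI-H211 and 1.19, 1.61 and 0.865 FPKM in NCI-H526. The sgNeg value of SUCNR1 was below the parental one in COR-L311, at a log2 difference of -1.40 (99.3% of genes at or above it). It was also below in NCI-H1048, at -1.28 (99.7%). It was above the parental one in NCI-H211, at 1.36 (0.945% of genes at or above it), and in NCI-H526, at 0.49 (16.4%). CHAT had 6.85, 20.7 and 20.7 FPKM in COR-L311, 1.02, 16.0 and 10.6 FPKM in NCI-H211 and 2.44, 4.76 and 5.81 FPKM in NCI-H526, with sgPOU2F3 below both other values. DCLK1 had 13.1, 17.7 and 37.4 FPKM in COR-L311, 2.58, 3.65 and 2.25 FPKM in NCI-H1048, 0.561, 1.31 and 1.10 FPKM in NCI-H211 and 11.4, 17.3 and 12.9 FPKM in NCI-H526. Its sgPOU2F3 value was below the parental one in COR-L311, NCI-H211 and NCI-H526 and above it in NCI-H1048. IL17RB had 102, 178 and 116 FPKM in COR-L311 and 55.9, 63.4 and 54.9 FPKM in NCI-H1048. It had 14.8, 32.4 and 27.4 FPKM in NCI-H211 and 119, 122 and 192 FPKM in NCI-H526. In COR-L311 its sgNeg value stood at a log2 difference of 0.61 from the parental one, as high in 12.5% of genes. IL4R had 9.93, 12.8 and 7.12 FPKM in NCI-H1048, 3.12, 6.86 and 5.72 FPKM in NCI-H211 and 2.34, 3.18 and 5.13 FPKM in NCI-H526.

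**Figure D4:**
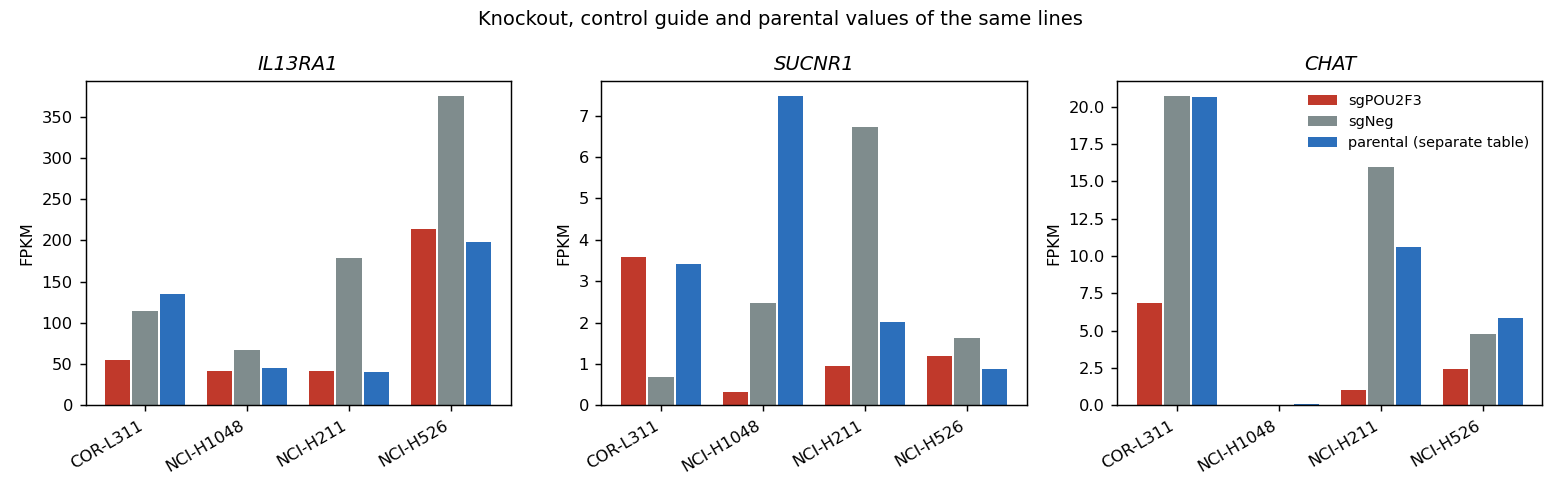
FPKM with sgPOU2F3, with sgNeg and in the parental culture (bars from left to right in each line; y axis, FPKM, own scale per gene) for the members the knockout results turn on. Each bar is 1 deposited value, tables were normalized separately, and the sgNeg value of IL13RA1 in NCI-H211 (179 FPKM) stands above the parental value (39.9 FPKM).

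No gene of the lists around the circuit, taken by role, passed the knockout test. Of 10 type 2 cytokine and alarmin genes, 0 passed the filter on low values. IL13, whose protein is the ligand of IL13RA1, had 4.18 FPKM with sgPOU2F3 against 2.04 FPKM with sgNeg in NCI-H1048 and was at 0.132 FPKM at most in parental cultures. Of 10 partner receptor chains, 4 were tested and 0 called, with a median log2 ratio of 0.20 beside -0.02 over all genes. IL17RC, a chain of the IL-17 receptors, was higher in 4 of 4 lines (log2 0.30, limma adjusted p 0.420), and its relatives IL17RA and IL17RE had log2 ratios of 0.23 and 0.17 (adjusted p 0.620 and 0.666). CRLF2, the TSLP receptor chain, was at 0 in all 8 columns and all 14 parental libraries. Of 23 genes of JAK-STAT and Act1 signalling, 21 were tested and 0 called, with a median of -0.01. TRAF3IP2, which encodes Act1, the adaptor that IL17RB uses, was higher in 4 of 4 lines, with 9.22 FPKM with sgPOU2F3 against 1.24 FPKM with sgNeg in NCI-H211 and 12.5 against 5.57 FPKM in NCI-H526 (log2 1.08, limma adjusted p 0.388, and 0.71 without NCI-H211).

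SOCS1, a feedback inhibitor of JAK kinases, had a log2 ratio of 0.41 (limma adjusted p 0.416), and IRS2, a docking protein of the IL-4 receptor, 1.27 (adjusted p 0.468), which was 0.39 without NCI-H211. Of 16 epithelial IL-4 and IL-13 response genes, 2 were tested (SOCS1 and CISH, the second at a log2 ratio of -0.14, adjusted p 0.848) and 0 called. Of 22 genes of succinate and receptor signalling, 18 were tested and 0 called, with a median of -0.14, 4 lower and 3 higher in 4 of 4 lines. GNG13, a G protein subunit of chemosensory cells, was lower in 4 of 4 lines (log2 -1.17, limma adjusted p 0.402, and -0.68 without NCI-H211). GNAI1, an inhibitory G protein subunit, was higher in 4 of 4 lines (log2 0.34, adjusted p 0.408), and ITPR3, a calcium release channel, in 3 of 4 (log2 0.60, adjusted p 0.424). Of 20 acetylcholine handling genes, 10 were tested and 0 called, with a median of 0.01, and SLC18A3 was the one lower in 4 of 4 lines. SLC44A1, a choline transporter, and CHKA, a choline kinase, each had a log2 ratio of -0.28 (adjusted p 0.446 and 0.511). Of 7 doublecortin family genes, 2 were tested and 0 called, and DCLK2, the relative of DCLK1, had a log2 ratio of -0.51 (limma adjusted p 0.434, and -0.27 without NCI-H1048), beside -0.07 for DCDC2 (adjusted p 0.8504). The list of 19 tuft cell markers had 17 tested, 0 called and 14 lower in 4 of 4 lines, with a median of -1.35 beside -0.54 for the tested members. The targeted gene POU2F3 is itself in this list and is among the 14. The difference of the medians was not tested. In NCI-H211, where the members were lowest, the YAP and mesenchymal markers summed to 1103 FPKM with sgPOU2F3 and 24.95 FPKM with sgNeg, and in NCI-H1048 to 2635 and 835 FPKM in the same order. Their sums were at most 5.69 FPKM in COR-L311 and NCI-H526. The 10 neuroendocrine markers summed to 920 FPKM with sgPOU2F3 and 468 FPKM with sgNeg in COR-L311 and to 432 and 352 FPKM in NCI-H526, but to 34.3 and 52.3 FPKM in NCI-H1048 and 17.9 and 64.1 FPKM in NCI-H211. NEUROD1 among them had 13.8 FPKM with sgPOU2F3 and 0.173 FPKM with sgNeg in COR-L311, 11.6 and 0.107 FPKM in NCI-H526, and was at 0 in the other 2 lines. The part of these markers in the values of the members was not tested.

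SUCNR1, TSLP and IL25 did not reach 1 FPKM in 4 parental libraries and were not compared with other genes for likeness. For the other 5 members, the 3 genes most like each by Pearson r of log2(FPKM + 1) over 14 lines, among 12519 genes, were the following, as a description with no p. IL17RB was most like CHDH (r 0.949), PTPN18 (0.915) and DDX58 (0.865). CHDH is the head-to-head neighbour of IL17RB, 189 bases away on the opposite strand. In the knockout tables CHDH had 25.4 FPKM with sgPOU2F3 against 46.7 FPKM with sgNeg in COR-L311, 12.03 against 14.4 FPKM in NCI-H1048, 7.45 against 13.3 FPKM in NCI-H211 and 27.1 against 30.2 FPKM in NCI-H526. IL13RA1 was most like PASK (0.855), HLA-C (0.842) and ALDH1A1 (0.832). IL4R was most like EVC (0.921), FGFRL1 (0.863) and TRIM59 (0.863). CHAT was most like DLAT (0.881), TAS1R3 (0.870) and MAP4K1 (0.868), and DCLK1 like CNIH2 (0.910), DUSP8 (0.889) and C11orf49 (0.888). The r with POU2F3 itself was 0.711 for IL13RA1, 0.697 for IL17RB, 0.647 for CHAT, 0.399 for IL4R and 0.140 for DCLK1.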

How the data were processed

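Polyadenylated RNA libraries were made with the TruSeq v2 kit, per the labels' protocols. The authors deposited FPKM per gene in 5 tables, with 1 sgPOU2F3 column (2 guides) and 1 sgNeg column in each of 4 knockout tables and 14 parental columns in the fifth. The labels call the parental values RPKM. TopHat2, Cufflinks, Cuffdiff and hg19 are named in the submitters' processing notes, with no versions; their settings are not given in the sources used here. Gene positions are from GENCODE 29 on GRCh38 and promoters from RefSeq GRCh38.p14. Genes at 1 FPKM or more in at least 4 columns were fitted with limma 3.58.1 in R 4.3.3 on log2(FPKM + 1), which understates changes of low genes, with a variance trend and Benjamini-Hochberg adjustment (threshold 0.05). The 2 columns of a line were paired, because both come from that line, by a line term. Lines were the replicates; the labels do not say that cultures were separate beyond the line. Depth was estimated from whole multiples of 1 fragment, with 68.5% to 78.1% of low values whole within 0.1, so fragment numbers are approximate. The fits were tested on simulated data. All 8 genes were named in every comparison, and of each list the genes past the threshold or with the 3 smallest p. The members and lists were chosen with earlier results of these data known. Other pseudocounts, filters, scalings, fits without the trend or the line term, and each line left out were tried.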

Additional observations from a re-analysis of the deposited data

Results flagged for a closer look

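Of 24 groups of values of the 8 genes, 5 held a value far from the rest by Dixon's test. Chance gives about 1 in 20, but 3 of the 5 were sure to be flagged, as given below, so no excess is read. IL4R in the parental COR-L311 line was low, at a log2(FPKM + 1) of 0.0396, with 2.62 to 3.02 in the other 3 lines used for knockout. CHAT in parental NCI-H82 was high, at 3.16, with 0 to 1.37 in the other 9 of its group. The remaining 3 were IL25, where a single library stood above libraries at 0, a pattern that the test always flags. These were the log2 ratio of sgPOU2F3 to sgNeg in NCI-H1048 (0.143), parental COR-L311 (0.134) and parental NCI-H82 (0.375), the first 2 of which rest on about 1 or 2 fragments. The SUCNR1 log2 ratio was 1.45 in COR-L311, against -1.41 in NCI-H1048 and -1.99 in NCI-H211. The difference between these lines was not tested, since each has 1 value per arm.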

How the results depend on the processing

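In the knockout comparison 2 genes, neither a member, were called with limma. The count was 0 with a pseudocount of 0.1 (1462 genes at an unadjusted p under 0.05), 0 with no filter (1647), 0 without the variance trend (1382), 1 with quantile normalization and 0 without the replicate block, that is without pairing by line (40). It was 0 to 0 with each line left out (918 to 1319). In the parental comparison the count was 33, and 21 to 50 with each line left out, the lowest without COR-L311 and the highest without NCI-H1048. No member that entered a main fit was called in that comparison under any of these settings. SUCNR1, outside the main parental fit, was called in the parental fit with no filter (limma adjusted p 0.012), which is not read as support. The filter of 3 libraries admits SUCNR1 only through lines used for knockout, so its call there is not read either. IL13RA1 kept a log2 ratio between -1.31 and -0.85 in the knockout comparison (lowest adjusted p 0.216), CHAT between -1.76 and -0.76, DCLK1 between -0.65 and -0.45, IL17RB between -0.69 and -0.33, IL4R between -0.53 and -0.22 and SUCNR1 between -1.22 and -0.07. The end nearest 0 came without NCI-H211 for each of the 6. Signs turned for 4 values with a line left out, and the cause was not tested: knockout CISH (-0.44 to 0.13, the highest without NCI-H211), parental DCLK1 (-0.41 to 0.98, the lowest without COR-L311), parental IL17RA (-0.28 to 0.10, the highest without COR-L311) and parental DCDC2 (-0.40 to 0.63, the lowest without NCI-H1048). Within single lines, 9 values in place of 7 were at least 2-fold lower with a pseudocount of 0.1. Depth limits IL25 and TSLP, which stay near 0, and CHAT in NCI-H1048.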

Other observations

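TRPM5, GNG13 and GNAT3, the genes of the succinate list with the 3 smallest p, had positive log2 differences in the parental lines used for knockout. None of them passed the threshold in the fit over all lines. ITPR3 of the same list went the other way, with a log2 difference of -2.23 (limma adjusted p 0.524). TRPM5, the cation channel of tuft cells, had 4.14 (limma adjusted p 0.0658), and with single lines left out 3.37 without NCI-H211 (adjusted p 0.193) to 5.63 without NCI-H1048, where it is near 0 (adjusted p 1.91e-05). GNG13 had 3.05 (adjusted p 0.107), and 2.20 without COR-L311 (adjusted p 0.322) to 4.18 without NCI-H1048, its lowest line of the 4 (adjusted p 0.000627). GNAT3, a taste G protein subunit, had 2.73 (adjusted p 0.174), and 1.83 without NCI-H211 (adjusted p 0.458) to 3.67 without NCI-H526 (adjusted p 0.0268). Of the partner chains, IL1RAP, IL17RC and IL17RA had log2 differences of 0.87, 0.72 and -0.11 (adjusted p 0.629 to 0.960). The signalling genes JAK1, TRAF4 and TRAF2 had 1.22, 0.74 and -0.54 (adjusted p 0.459 to 0.563), and the response genes SOCS1, FOXA3 and CISH -0.66, -0.47 and -0.34 (adjusted p 0.782 to 0.905). COLQ, which anchors acetylcholinesterase, had 0.98 and the cholinesterase gene BCHE -1.92 (adjusted p 0.520 and 0.599). DCLK2 and DCDC2 had 0.56 and 0.28 (adjusted p 0.849 and 0.940). CHRNA3, a nicotinic acetylcholine receptor subunit, was at a log2 difference of -2.35 (adjusted p 0.322), and DCX, the neuronal relative of DCLK1, at -2.68 (adjusted p 0.457). In COR-L311, DCX had 13.5 FPKM with sgPOU2F3 and 0.245 FPKM with sgNeg, 1 value per arm.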
